A study of Mus musculus with 12 samples.

Results

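A set of 10 genes of prostaglandin metabolism and signalling was examined in whole lungs of newborn mice given lipopolysaccharide (LPS). They were taken by symbol from the 52550 genes of the count table, as the enzymes that make prostaglandin E2 and prostacyclin (Ptgs1, Ptgs2, Ptges and Ptgis), the enzyme that inactivates prostaglandins (Hpgd), the 4 receptors of prostaglandin E2 (Ptger1 to Ptger4) and the receptor of prostacyclin (Ptgir). All 10 of 10 passed the filter on low counts. The mice were of the C57BL/6J background, onto which the Adm allele had been crossed from 129/SvEv, and were either WT (Adm+/+) or Adm+/-, carrying 1 working copy of the gene for adrenomedullin, a vasodilator peptide. Mice that lack both copies die as embryos, so the heterozygote is a model of reduced and not of absent adrenomedullin. Each genotype received daily intraperitoneal injections of LPS of Escherichia coli O55:B5, an endotoxin that provokes inflammation, at 6 mg/kg, or of phosphate-buffered saline (PBS), in 3 doses from postnatal day 3 to postnatal day 5. Lungs were taken on postnatal day 5, 6 h after the last dose. There were 3 libraries in each of the 4 groups, 1 per mouse, named here by the number in their labels: WT PBS 3, 4 and 5, WT LPS 9, 10 and 11, Adm+/- PBS 6, 7 and 8, and Adm+/- LPS 1, 2 and 12. Since whole lung was sequenced in bulk, fewer cells of a type and less RNA per cell cannot be told apart in any value below.

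Prostaglandins are lipid signals made from arachidonate, which phospholipases release from membranes. The cyclooxygenases, Ptgs1, present in most tissues, and Ptgs2, which inflammatory stimuli induce, turn arachidonate into prostaglandin H2, from which Ptges makes prostaglandin E2 and Ptgis makes prostacyclin. The lung removes circulating prostaglandin E2 by uptake through the carrier Slco2a1 and oxidation by Hpgd, and after birth this clearance takes part in the closure of the ductus arteriosus. Among the receptors, the products of Ptger2, Ptger4 and Ptgir raise cyclic AMP, that of Ptger3 mainly lowers it, and that of Ptger1 raises intracellular calcium.

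Of the 10 genes, 2 were past the threshold after LPS in WT lungs, where 17.6% of all tested genes were, and 6 in Adm+/- lungs, where 25.0% were. Ptges rose and Ptger3 fell in both genotypes. In Adm+/- lungs Ptgs2 and Ptger4 rose 3.17-fold and 3.63-fold, Ptgs1 rose 1.55-fold, and Hpgd fell 2.31-fold, whereas their fitted changes in WT lungs did not pass. The tests of the difference between the genotypes did not pass for any of the 10 genes, so these responses are not shown to differ between them by the test used. To count as past the threshold, a gene needed an adjusted p below 0.05 together with a log2 fold change beyond 0.5 in either direction, with p-values from edgeR's quasi-likelihood test adjusted by Benjamini-Hochberg over 15885 protein-coding genes, and every adjusted p below is of that kind unless another tool is named. Levels are in CPM, the counts of a gene relative to the TMM-scaled total of its library.

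The promoters of the 6 genes past the threshold in at least 1 genotype are given first, since these are the genes whose RNA level changed with LPS. Each line holds the 250 bases before the RefSeq start site, from GRCm38.p6 (the same sequence as mm10), read 5′ to 3′ along the gene, with capitals marking matches to the motifs named after them.
Ptgs2, chr1:150099781-150100030, plus strand: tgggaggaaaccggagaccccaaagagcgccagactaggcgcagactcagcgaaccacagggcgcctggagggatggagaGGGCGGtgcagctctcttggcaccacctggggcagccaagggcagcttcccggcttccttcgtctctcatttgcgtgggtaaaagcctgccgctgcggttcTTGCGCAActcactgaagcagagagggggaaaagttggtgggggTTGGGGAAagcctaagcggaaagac
Ptges, chr2:30903298-30903547, minus strand: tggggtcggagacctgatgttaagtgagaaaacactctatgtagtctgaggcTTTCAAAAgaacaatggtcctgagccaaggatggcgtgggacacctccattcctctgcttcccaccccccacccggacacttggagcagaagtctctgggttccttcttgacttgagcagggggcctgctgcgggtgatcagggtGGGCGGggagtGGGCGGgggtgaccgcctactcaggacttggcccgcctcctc
Ptgs1, chr2:36230176-36230425, plus strand: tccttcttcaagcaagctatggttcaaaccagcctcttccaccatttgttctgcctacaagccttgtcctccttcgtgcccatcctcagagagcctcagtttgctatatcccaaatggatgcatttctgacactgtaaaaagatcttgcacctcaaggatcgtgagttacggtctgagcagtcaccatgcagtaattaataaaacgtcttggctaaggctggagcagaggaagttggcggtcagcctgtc
Hpgd, chr8:56294302-56294551, plus strand: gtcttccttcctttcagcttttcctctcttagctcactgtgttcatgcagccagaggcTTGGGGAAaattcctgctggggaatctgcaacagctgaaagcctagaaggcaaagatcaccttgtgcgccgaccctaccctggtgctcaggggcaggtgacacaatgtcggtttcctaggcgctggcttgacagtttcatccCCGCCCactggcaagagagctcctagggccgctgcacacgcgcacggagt
Ptger4, chr15:5244188-5244437, minus strand: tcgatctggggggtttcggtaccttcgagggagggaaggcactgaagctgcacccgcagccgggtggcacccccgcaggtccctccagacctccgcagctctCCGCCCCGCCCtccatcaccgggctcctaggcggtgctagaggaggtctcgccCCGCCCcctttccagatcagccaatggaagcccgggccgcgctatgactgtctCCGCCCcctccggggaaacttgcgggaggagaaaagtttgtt
Ptger3, chr3:157566626-157566875, plus strand: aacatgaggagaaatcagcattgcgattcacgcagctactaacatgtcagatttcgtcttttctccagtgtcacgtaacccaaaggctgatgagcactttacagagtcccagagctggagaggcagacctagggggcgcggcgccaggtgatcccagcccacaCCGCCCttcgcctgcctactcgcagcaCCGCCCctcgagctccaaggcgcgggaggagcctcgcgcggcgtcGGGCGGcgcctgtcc
The 10 motifs listed here were searched on both strands of windows of 300 bases, 250 before and 50 after the start, and 8 of the 10 genes had a window. The C/EBP motif TTNNGNAA was found in 4 of these 8 and in 40.7% of all 32817 windows. Ptgs2 held it at 69 to 62 and at 25 to 18 bases before the start, the former reading as a match on both strands, while Ptges, Hpgd and Ptger2 held it farther upstream or after the start. The GC box GGGCGG was found in 6 of 8 windows and in 35.6% of all. Ptger4 held 4 GC boxes, of which the first 2 share a base, Ptger3 held 3, Ptges 2, Ptgir 2, and Ptgs2 and Hpgd 1 each. Within the 50 bases after its start, Ptgs2 also held the core of the cyclic AMP response element, TGACG, on the minus strand, at bases 14 to 18, and the E-box CACGTG at bases 17 to 22, which overlap, and which occur in 20.8% and 7.15% of all windows. Hpgd held a TATAAA there (13.6% of all windows). The letters of 5 further motifs, kappa B (4.8% of all windows), Egr1 (GCGNGGGCG, 5.56%), AP-1 (TGANTCA, 7.81%), STAT (TTCNNNGAA, 8.29%) and the full cyclic AMP response element (TGACGTCA, 1.79%), were not in any of the 8 windows. The window of Ptgs1 held none of the 10 motifs. The other 4 genes lie at chr2:167191805-167240604 on the minus strand (Ptgis), chr8:83666678-83672753 (Ptger1), chr14:44988195-45003820 (Ptger2) and chr7:16906490-16910905 (Ptgir), the latter 3 on the plus strand, in mm10. A match is a description of these letters only.

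The libraries held 22382535 to 38062873 counts (median 28494877), and no pair within a group was identical. Adm itself ranged from 3.96 to 8.15 CPM in the 6 WT libraries and from 2.87 to 6.28 CPM in the 6 Adm+/- libraries. The genotypes overlapped, and Adm differed between them by a log2 fold change of −0.50 ± 0.32 (SE, adjusted p = 0.999) in PBS and −0.55 ± 0.31 (adjusted p = 0.480) in LPS, so its level in these libraries does not separate the genotypes. The study checked the genotype by genotyping and by RT-PCR of Adm in lung tissue, neither of which was analysed here. WT PBS 5 and Adm+/- PBS 6 stood apart from the rest, with 13.3% to 16.6% of counts on the noncoding RNA Gm26917 against 5.42% to 7.40% in the other 10 libraries, and with summed lung fibroblast markers (11 genes) of 30030 to 45570 CPM against 12100 to 18140 CPM. Summed neutrophil markers (11 genes) were at 1607 to 2966 CPM in the LPS libraries and 40.7 to 186 CPM in the PBS libraries, and those of monocytes and macrophages (14 genes) at 1794 to 2469 CPM against 1059 to 1324 CPM. Skeletal muscle markers (12 genes) were at 2024 to 4565 CPM in WT LPS and at 184 to 739 CPM elsewhere. Squamous epithelium markers (10 genes) were at 3286 CPM in WT LPS 9, 1690 CPM in WT LPS 11 and 10.9 to 54.0 CPM in the other 10 libraries. Airway epithelium markers (8 genes) were at 2410 to 2786 CPM in the LPS libraries and 1049 to 2183 CPM in the PBS libraries, platelet markers (10 genes) at 62.1 to 102 CPM against 46.2 to 56.4 CPM, and the fibroblast markers at 12100 to 16670 CPM against 17040 to 45570 CPM. Over the 12 libraries, the most abundant fibroblast markers were the collagens Col1a1, Col3a1 and Col1a2, at means of 6789, 5161 and 4603 CPM. Of the 11 fibroblast markers, 2 were higher and 2 lower past the threshold with LPS in WT lungs (10.5% and 7.09% of all tested genes were). In Adm+/- lungs 0 were higher and 3 lower (12.8% and 12.2% of all tested genes were). Endothelial markers (12 genes) were at 3024 to 3084 CPM in WT LPS and 3224 to 3588 CPM elsewhere. Mast cell and basophil markers (8 genes) were at 372 to 396 CPM in Adm+/- LPS and 250.3 to 353 CPM in the other 9 libraries, the same split as in the levels of Ptgs1, Ptgs2 and Ptger4. Most of that sum was Kit, at 280.5 to 311 CPM in Adm+/- LPS and 183 to 281.4 CPM elsewhere, and the mast cell protease Cpa3 was at 2.89 to 3.78 CPM against 2.66 to 5.81 CPM, so that neither gene alone separated Adm+/- LPS. With LPS, 0 of these 8 markers were past the threshold in either genotype (17.6% of all tested genes in WT, 25.0% in Adm+/- lungs). Their median log2 fold change was 0.03 in WT and −0.10 in Adm+/- lungs. Type II pneumocyte markers (9 genes) were present throughout, at 13420 to 17180 CPM, and type I pneumocyte markers (8 genes) and smooth muscle and pericyte markers (10 genes) at 2563 to 3047 and 1541 to 2699 CPM, with overlap between LPS and PBS in each of these 3 lists. Each sum is over the markers that passed the filter on low counts. The part of these markers in the results below was not tested.

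**Figure D1:**
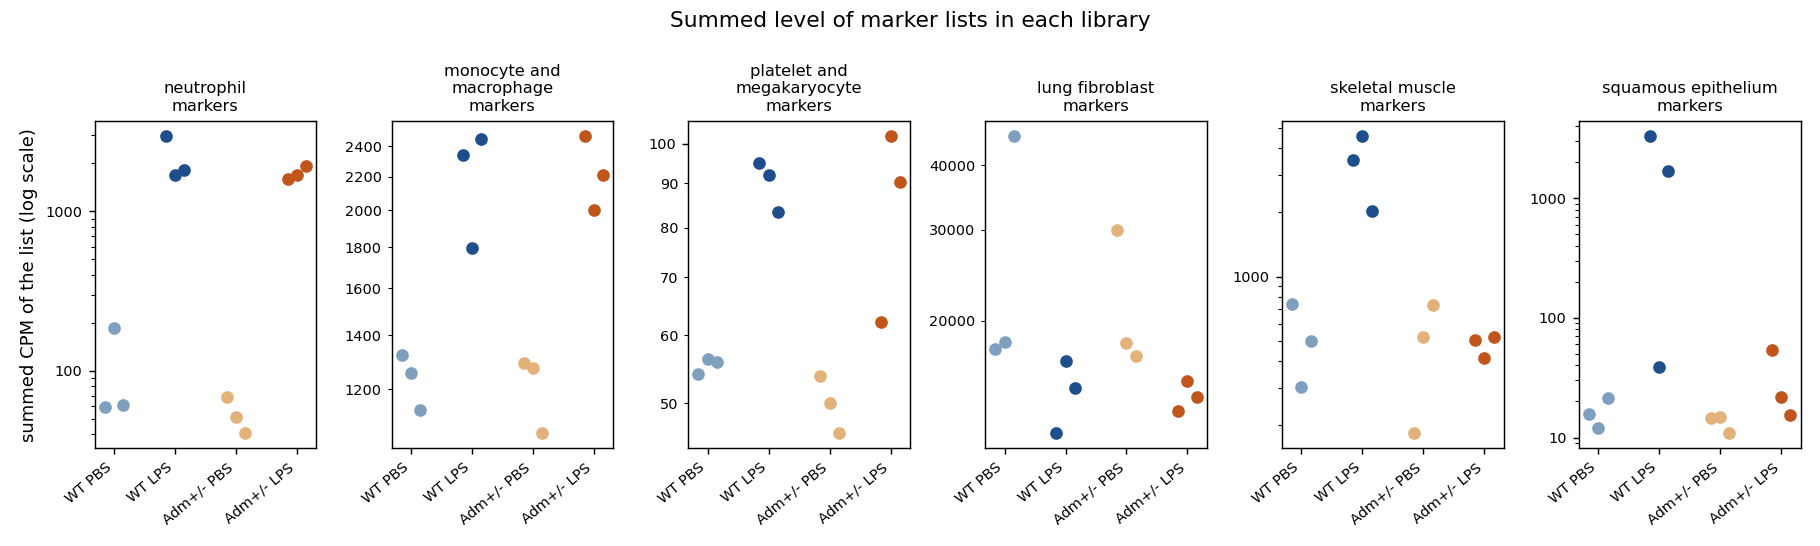
Summed level (CPM, log scale) of 6 marker lists in each of the 12 libraries, 1 point per library and 3 per group. Neutrophil, monocyte and platelet markers are higher in all LPS than in all PBS libraries, while squamous markers are high in 2 of the 3 WT LPS libraries and skeletal muscle markers in all 3.

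Ptgs1 encodes cyclooxygenase-1. It lay at 106, 135 and 106 CPM in WT PBS 3, 4 and 5 and at 126, 144 and 131 CPM in WT LPS 9, 10 and 11. For Ptgs1 in Adm+/- lungs the levels were 111, 98.2 and 110 CPM in PBS 6, 7 and 8 and 172, 166 and 158 CPM in LPS 1, 2 and 12. The Adm+/- LPS libraries were the highest of the 12, above those of every other group, while the WT groups overlapped. With LPS, the log2 fold change of Ptgs1 was 0.64 ± 0.11 (SE) in Adm+/- lungs (adjusted p = 0.00151) and 0.21 ± 0.11 in WT lungs (adjusted p = 0.188, 95% interval −0.03 to 0.46). In the test against a log2 fold change of 0.5 the Adm+/- call was lost (adjusted p = 0.219). Ptgs1 was the more abundant cyclooxygenase in every group, at 27.5 to 42.6 CPM per kb of exon against 0.817 to 2.65 CPM per kb for Ptgs2 as group means.

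Ptgs2, the inducible cyclooxygenase, was the least abundant of the 10 genes per kb in 3 of the 4 groups. Its range per kb overlapped that of Ptger1 in each of these groups. Its level was 4.78, 4.66 and 1.79 CPM in WT PBS 3, 4 and 5 and 5.58, 4.57 and 4.62 CPM in WT LPS 9, 10 and 11. For Ptgs2 in Adm+/- lungs the levels were 2.42, 5.44 and 3.50 CPM in PBS 6, 7 and 8 and 11.3, 14.5 and 10.7 CPM in LPS 1, 2 and 12. The Adm+/- LPS libraries stood above all 9 others, and the WT LPS libraries lay within the range of the PBS libraries but for WT LPS 9, just above it. Behind these values stood 29 to 181 counts per library in the other 3 groups and 299 to 346 counts in Adm+/- LPS. With LPS, the log2 fold change of Ptgs2 was 1.67 ± 0.34 in Adm+/- lungs (adjusted p = 0.00394) and 0.38 ± 0.35 in WT lungs (adjusted p = 0.450, 95% interval −0.38 to 1.14). The lowest PBS library of each genotype was one of the 2 that stood apart. Without both, the log2 fold change in WT lungs was 0.06 (adjusted p = 0.867) and the Adm+/- call was kept. The antisense RNA Ptgs2os, whose exons cover part of the promoter printed above, had 4 to 19 counts per library.

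Ptges, the inducible synthase of prostaglandin E2, rose in both genotypes. It was at 18.3, 17.9 and 20.5 CPM in WT PBS 3, 4 and 5 and at 67.4, 48.0 and 27.1 CPM in WT LPS 9, 10 and 11. For Ptges in Adm+/- lungs the levels were 21.9, 21.0 and 23.0 CPM in PBS 6, 7 and 8 and 57.9, 79.4 and 59.3 CPM in LPS 1, 2 and 12. Every LPS library was above every PBS library. The WT LPS libraries were spread widely, from WT LPS 11, the lowest of the 6 LPS libraries, to WT LPS 9, within the Adm+/- LPS range. With LPS, the log2 fold change of Ptges was 1.33 ± 0.26 in WT lungs (adjusted p = 0.00502) and 1.57 ± 0.26 in Adm+/- lungs (adjusted p = 0.00103), and both calls were kept without any single library. Without WT LPS 9 and 11, which carried the squamous transcripts, the value in WT lungs was 1.34, with WT LPS 10 alone in that group. That fit takes its spread from the other groups and assumes that this library varies as theirs do. WT LPS 10 had the highest summed skeletal muscle markers of the 12 libraries (4565 CPM).

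Ptgis, the prostacyclin synthase, was at 25.5, 27.03 and 37.4 CPM in WT PBS 3, 4 and 5 and at 31.3, 40.8 and 41.7 CPM in WT LPS 9, 10 and 11. For Ptgis in Adm+/- lungs the levels were 25.8, 20.3 and 22.4 CPM in PBS 6, 7 and 8 and 27.3, 30.7 and 30.3 CPM in LPS 1, 2 and 12. In both treatments the Adm+/- means were below the WT means, and the groups overlapped in PBS and did not in LPS. The log2 fold change with LPS was 0.34 ± 0.17 in WT lungs (adjusted p = 0.159) and 0.37 ± 0.17 in Adm+/- lungs (adjusted p = 0.115), and neither was past the threshold. The WT value became 0.52 (adjusted p = 0.0294) without WT PBS 5, the PBS library with the highest Ptgis, which stood apart.

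**Figure D2:**
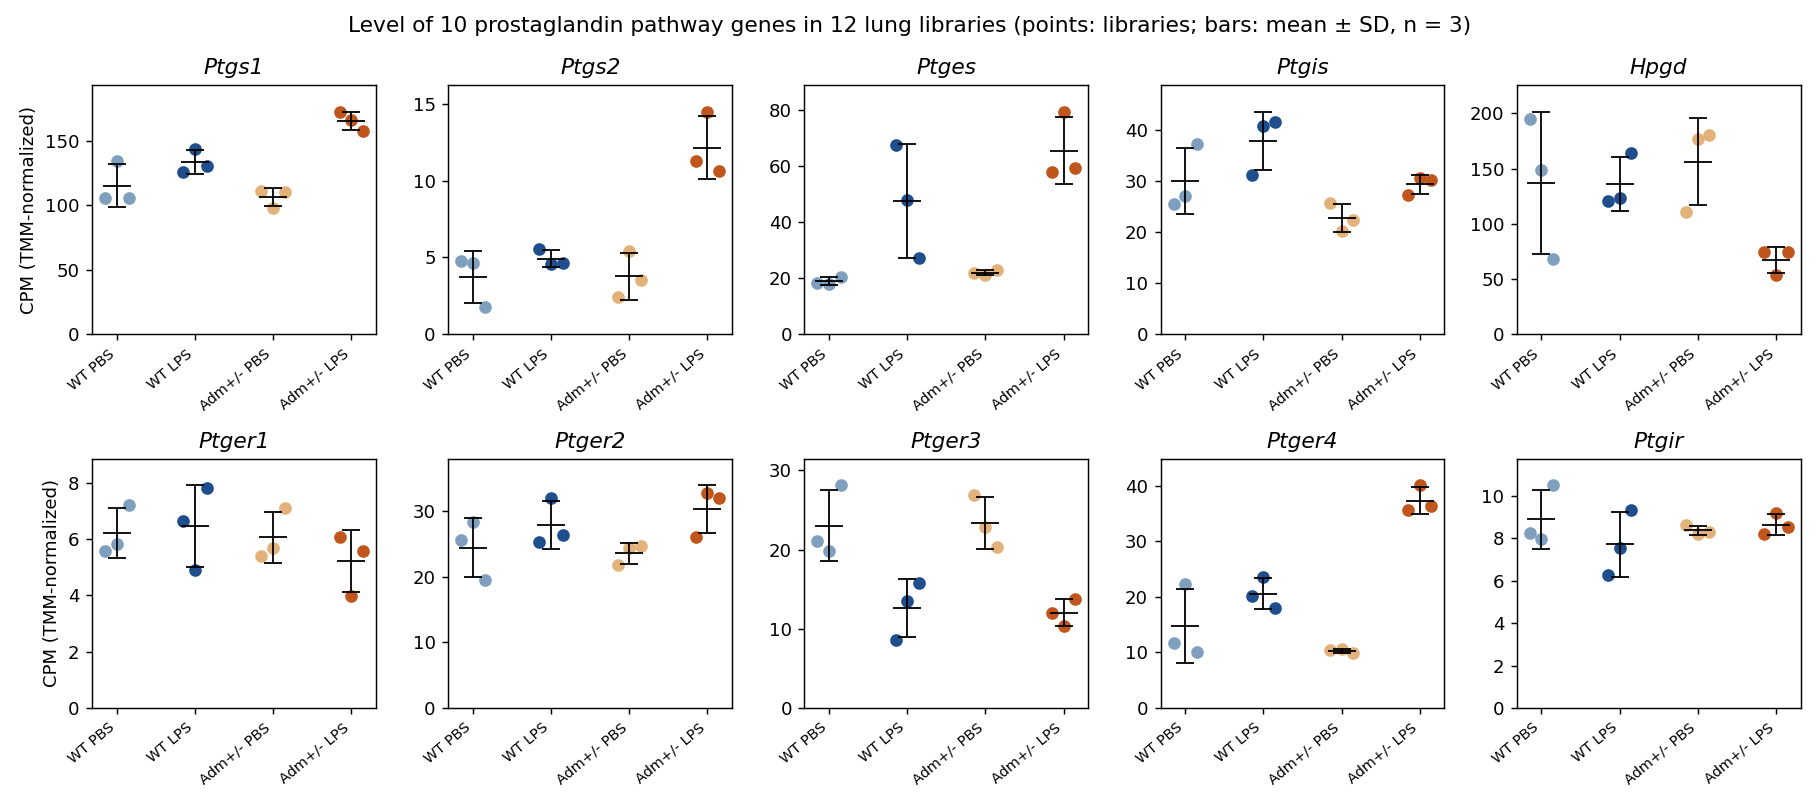
Level (TMM-scaled CPM, linear axes from 0) of the 10 prostaglandin genes in 12 libraries, with points for libraries and bars for the mean ± SD of 3. Ptgs2, Ptgs1 and Ptger4 are highest and Hpgd is lowest on average in Adm+/- LPS, and Ptges is raised and Ptger3 lowered by LPS in both genotypes.

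Hpgd, the dehydrogenase that begins the inactivation of prostaglandins, was the most abundant of the 10 per kb in WT PBS, WT LPS and Adm+/- PBS. It was at 195, 149 and 68.1 CPM in WT PBS 3, 4 and 5 and at 121, 123 and 164 CPM in WT LPS 9, 10 and 11. For Hpgd in Adm+/- lungs the levels were 111, 177 and 181 CPM in PBS 6, 7 and 8 and 74.2, 54.0 and 74.2 CPM in LPS 1, 2 and 12. Both lowest PBS values came from the libraries that stood apart, WT PBS 5 lying within the range of Adm+/- LPS, and all other libraries lay above that range. With LPS, the log2 fold change of Hpgd was −1.21 ± 0.32 in Adm+/- lungs (adjusted p = 0.0155) and −0.02 ± 0.32 in WT lungs (adjusted p = 0.977, 95% interval −0.71 to 0.68). The Adm+/- call was lost in the test against a log2 fold change of 0.5 (adjusted p = 0.0757), without Adm+/- PBS 8 (−1.09, adjusted p = 0.0532), and without Adm+/- LPS 2 (−1.07, adjusted p = 0.0626). Without both PBS libraries that stood apart, the value was −0.34 in WT lungs (adjusted p = 0.198) and the Adm+/- call was kept.

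Ptger4 encodes a receptor of prostaglandin E2. It was at 11.7, 22.3 and 10.1 CPM in WT PBS 3, 4 and 5 and at 20.2, 23.5 and 18.0 CPM in WT LPS 9, 10 and 11. For Ptger4 in Adm+/- lungs the levels were 10.4, 10.6 and 9.86 CPM in PBS 6, 7 and 8 and 35.6, 40.1 and 36.3 CPM in LPS 1, 2 and 12. The Adm+/- LPS libraries were above all 9 others. The WT groups overlapped because of WT PBS 4 alone, which lay within the WT LPS range, and whose neutrophil markers summed to 186 CPM against 40.7 to 68.5 CPM in the other 5 PBS libraries. With LPS, the log2 fold change of Ptger4 was 1.86 ± 0.25 in Adm+/- lungs (adjusted p = 0.000289) and 0.48 ± 0.24 in WT lungs (adjusted p = 0.168, 95% interval −0.04 to 1.01). Without WT PBS 4 the WT value was 0.91 (adjusted p = 0.00311) and past the threshold. Ptger4 lies on chromosome 15 and shares 82 exon bases with Ttc33 and 1015 with the pseudogene Gm15937 on the other strand.

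Ptger3, the receptor that lowers cyclic AMP, fell in both genotypes. It was at 21.1, 19.9 and 28.1 CPM in WT PBS 3, 4 and 5 and at 8.63, 13.6 and 15.8 CPM in WT LPS 9, 10 and 11. For Ptger3 in Adm+/- lungs the levels were 26.9, 22.8 and 20.4 CPM in PBS 6, 7 and 8 and 12.0, 10.3 and 13.8 CPM in LPS 1, 2 and 12. Every LPS library lay below every PBS library. With LPS, the log2 fold change of Ptger3 was −0.86 ± 0.22 in WT lungs (adjusted p = 0.0192) and −0.95 ± 0.22 in Adm+/- lungs (adjusted p = 0.00776). The WT call was lost in the fit of the 6 WT libraries alone (−0.86, adjusted p = 0.0836), without both PBS libraries that stood apart (−0.70, adjusted p = 0.0501), without WT PBS 5 (−0.70, adjusted p = 0.0539), without WT LPS 9 (−0.65, adjusted p = 0.0639), and without WT LPS 9 and 11 together (−0.76, adjusted p = 0.154), where other groups supply the spread of the lone WT LPS library. The Adm+/- call of Ptger3 was kept in each of the fits that left out WT libraries. In the test against a log2 fold change of 0.5 neither call was kept (adjusted p = 0.179 in WT and 0.0751 in Adm+/- lungs).

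The other 3 receptor genes were not past the threshold in either genotype. Ptger2, which like Ptger4 raises cyclic AMP, was at 25.6, 28.3 and 19.5 CPM in WT PBS 3, 4 and 5 and at 25.2, 32.02 and 26.3 CPM in WT LPS 9, 10 and 11. For Ptger2 in Adm+/- lungs the levels were 21.8, 24.3 and 24.7 CPM in PBS 6, 7 and 8 and 26.1, 32.7 and 32.1 CPM in LPS 1, 2 and 12. Its groups overlapped in WT and did not in Adm+/- lungs, where the log2 fold change was 0.36 ± 0.15 (adjusted p = 0.0984, 95% interval 0.02 to 0.70). The prostacyclin receptor Ptgir ranged from 6.29 to 10.5 CPM over the 12 libraries, with group means of 7.71 to 8.90 CPM, and its log2 fold change with LPS was −0.21 ± 0.17 in WT lungs and 0.04 ± 0.17 in Adm+/- lungs, with 95% intervals of −0.57 to 0.16 and −0.32 to 0.41. Ptger1 ranged from 3.98 to 7.81 CPM, and its log2 fold changes were 0.06 ± 0.22 and −0.22 ± 0.22, with intervals of −0.42 to 0.54 and −0.70 to 0.26. Its 95 to 216 counts per library are uncertain while the strand setting of the counting is not known.

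Read as a list, 2 of 10 genes were past the threshold in WT lungs (1 higher and 1 lower), where 17.6% of all tested genes were (10.5% higher and 7.09% lower), and the median log2 fold change was 0.20 against 0.01 over all genes. In Adm+/- lungs 6 of 10 were past the threshold (4 higher and 2 lower), where 25.0% of all tested genes were (12.8% higher and 12.2% lower), and the median was 0.36 against −0.01 over all genes. Ptges and Ptger3, or 2 of 10, were past it in the same direction in both genotypes (13.1% of all tested genes), 4 of 10 in Adm+/- and not in WT lungs (11.8%), and 0 of 10 in WT and not in Adm+/- lungs (4.43%), by edgeR. The LPS and PBS libraries of a genotype did not overlap for 2 of 10 genes in WT lungs (36.2% of all genes) and for 8 of 10 in Adm+/- lungs (53.7% of all genes). In the average of both genotypes, 5 of 10 passed (28.0% of all genes, with 13.0% lower), namely Ptges (1.45 ± 0.18, adjusted p = 0.000101), Ptger4 (1.17 ± 0.17, adjusted p = 0.000273) and Ptgs2 (1.02 ± 0.24, adjusted p = 0.00559) upward and Ptger3 (−0.91 ± 0.16, adjusted p = 0.000819) and Hpgd (−0.61 ± 0.23, adjusted p = 0.0449) downward. The averaged call of Hpgd was lost in 9 of the 12 fits that each left out 1 library, the exceptions being those without WT PBS 5, WT LPS 11 or Adm+/- PBS 6, and among the 9 the change nearest to 0 was −0.44 (adjusted p = 0.105, without WT PBS 3). It was also lost by limma-voom (−0.55, adjusted p = 0.0727), in the test against 0.5 on the log2 scale (adjusted p = 0.523) and without WT LPS 9 and 11 (−0.69, adjusted p = 0.127). In the test against 0.5 the averaged call of Ptgs2 was lost as well (adjusted p = 0.0588).

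**Figure D3:**
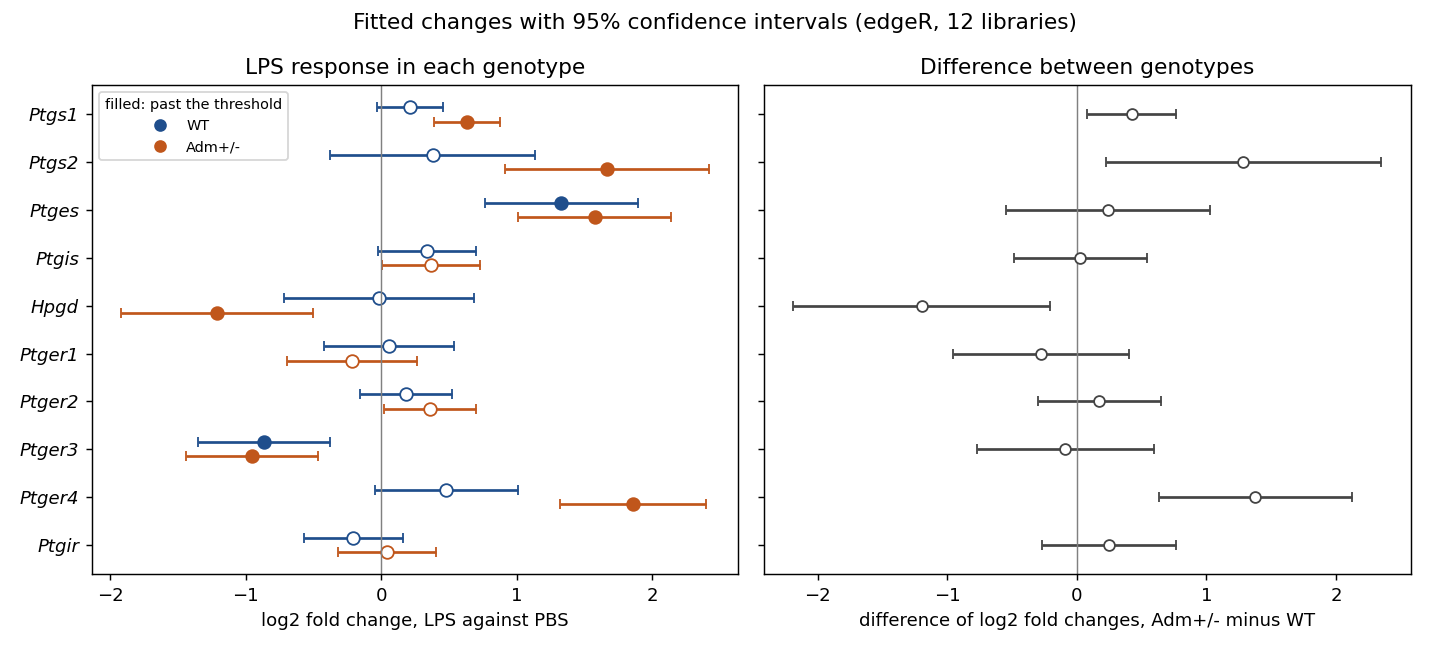
Fitted log2 fold changes of the 10 genes with 95% confidence intervals, LPS against PBS in each genotype (left, filled where past the threshold) and the Adm+/- minus WT difference of the 2 responses (right). The intervals of the difference lie on 1 side of 0 for Ptgs1, Ptgs2, Hpgd and Ptger4, and none of the 10 differences was past the threshold after adjustment over all genes.

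The response to LPS was then compared between the genotypes. The differences (Adm+/- minus WT) were 1.38 ± 0.34 for Ptger4 (95% interval 0.63 to 2.12, adjusted p = 0.257), 1.29 ± 0.49 for Ptgs2 (0.22 to 2.35, adjusted p = 0.508), 0.42 ± 0.16 for Ptgs1 (0.08 to 0.77, adjusted p = 0.501) and −1.19 ± 0.45 for Hpgd (−2.19 to −0.20, adjusted p = 0.511). By edgeR's quasi-likelihood test 0 of 10 genes passed, where 0.145% of all tested genes did (0% higher and 0.145% lower in Adm+/-). These 4 genes had an unadjusted p below 0.05, which 7.85% of all tested genes had. By DESeq2 1 of 10 passed, Ptger4 (1.38, adjusted p = 0.0156), and by limma-voom 0 did. How many of all tested genes passed this comparison by DESeq2 or limma-voom was not counted, so that call has no share beside it. Without WT PBS 4, the difference of Ptger4 was 0.95 (adjusted p = 0.210). For Ptges and Ptger3 the differences were 0.24 (−0.54 to 1.03) and −0.09 (−0.77 to 0.60), for Ptgis 0.03 (−0.48 to 0.54), and the intervals leave room for changes in either direction.

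Between the LPS-treated lungs of the genotypes, the values of Adm+/- against WT were 1.30 ± 0.34 for Ptgs2 (adjusted p = 0.0741), 0.86 ± 0.24 for Ptger4 (adjusted p = 0.0901), −1.01 ± 0.32 for Hpgd (adjusted p = 0.144), 0.31 ± 0.11 for Ptgs1 (adjusted p = 0.200) and −0.36 ± 0.16 for Ptgis (adjusted p = 0.340). In these 5 genes the libraries of the genotypes did not overlap, as in 24.6% of all tested genes. By edgeR's quasi-likelihood test 0 of 10 passed, where 2.05% of all tested genes did (0.327% higher and 1.72% lower in Adm+/-), and 5 of 10 had an unadjusted p below 0.05 (14.3% of all genes). Ptgs2, Ptger4 and Hpgd passed by DESeq2 (adjusted p = 0.00571, 0.0131 and 0.0381), in the fit of the 6 LPS libraries alone (0.0132, 0.0151 and 0.0303) and in the fit without WT PBS 5 (0.0184, 0.0344 and 0.0295), a library that is not part of this comparison and enters it through the shared estimate of spread. Over all genes, 803 passed by DESeq2 and 573 without WT PBS 5, against 325 in the main fit. The counts over all genes for the 6 LPS libraries alone and without WT PBS 4 are not given here. Without WT PBS 4, Ptger4 passed (0.86, adjusted p = 0.00807). In limma-voom 0 of 10 passed. Without WT LPS 9 and 11 the values were 1.41, 0.67 and −0.87 (adjusted p = 0.625, 0.970 and 0.942) against WT LPS 10 alone. Between the PBS-treated lungs, 0 of 10 passed by edgeR, DESeq2 or limma-voom, where 0% of all tested genes passed by edgeR, 1 of 10 had an unadjusted p below 0.05 (Ptgis, −0.39 ± 0.17, 2.17% of all genes), and Ptges was the 1 gene without overlap (4.99% of all genes), at 17.9 to 20.5 CPM in WT and 21.0 to 23.0 CPM in Adm+/-. These comparisons and the difference of responses share libraries and are not independent of each other.

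Ratios between genes of one library depend little on how it was scaled. On the log2 scale of CPM, without correction for gene length, the ratio of Ptgs2 to Hpgd was −5.16 ± 0.18 in WT PBS, −4.76 ± 0.36 in WT LPS and −5.38 ± 0.34 in Adm+/- PBS, and −2.46 ± 0.50 in Adm+/- LPS (mean ± SD, n = 3 each). All 3 Adm+/- LPS libraries (−2.79 to −1.89) were apart from the other 9 (−5.66 to −4.41). In the 2 libraries that stood apart, where both genes were low, this ratio lay within the range of the other PBS libraries. The ratio of Ptger4 to Ptger2, both of which raise cyclic AMP, was −0.80 ± 0.41, −0.44 ± 0.11 and −1.19 ± 0.12 in the same 3 groups and 0.31 ± 0.13 in Adm+/- LPS, where it was above 0 in 3 of 3 libraries and in none of the other 9. The ratio of Ptges to Ptgis was −0.64 ± 0.20 in WT PBS, 0.24 ± 0.86 in WT LPS, −0.05 ± 0.16 in Adm+/- PBS and 1.14 ± 0.21 in Adm+/- LPS, and the WT LPS libraries spanned −0.62 to 1.11, from the WT PBS range into that of Adm+/- LPS. These ratios were compared without a test.

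**Figure D4:**
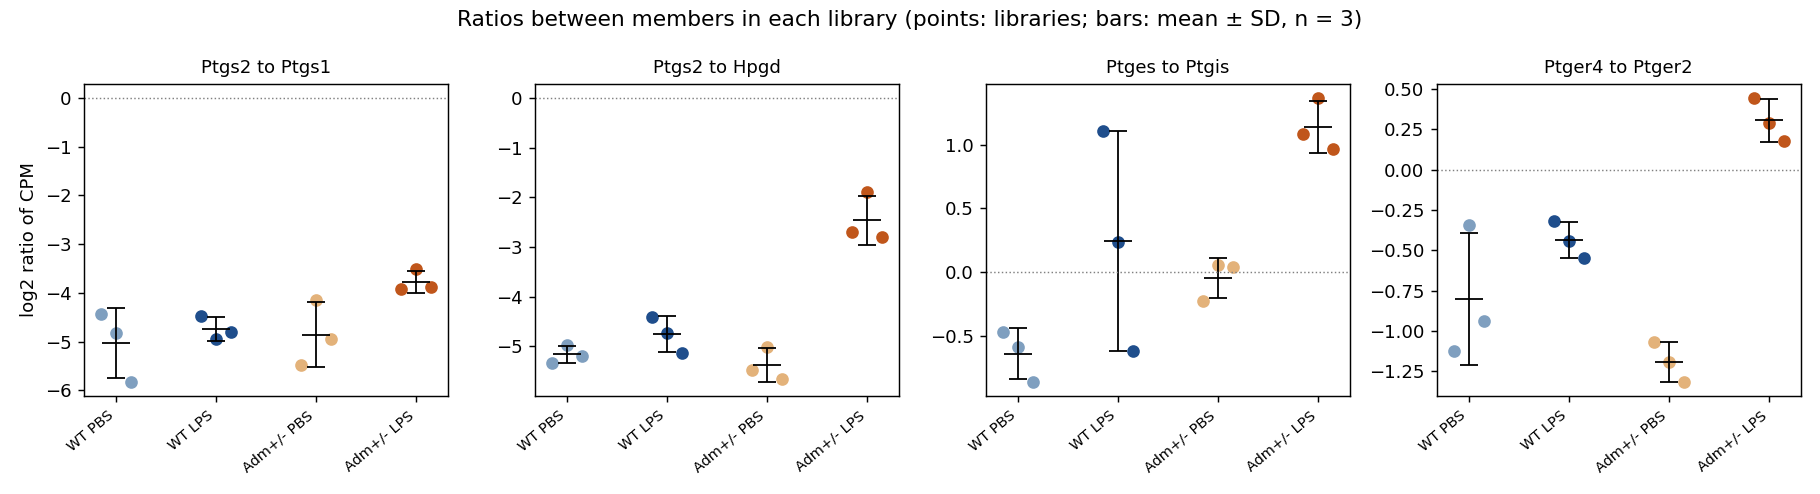
Log2 ratio of CPM between pairs of the 10 genes in each library (points), with mean ± SD of 3 (bars) and a dotted line at 0. The ratio of Ptgs2 to Hpgd is −2.79 to −1.89 in Adm+/- LPS and at most −4.41 elsewhere, and that of Ptger4 to Ptger2 is above 0 in Adm+/- LPS only among the 12 libraries.

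Per kb of exon, the order of levels in WT PBS ran from Hpgd (81.5 ± 38.2 CPM per kb) through Ptgs1 (29.7 ± 4.29), Ptgis (11.7 ± 2.51), Ptges (4.81 ± 0.36), Ptger2 (4.71 ± 0.87), Ptger3 (4.05 ± 0.78), Ptgir (2.67 ± 0.42), Ptger4 (2.21 ± 0.999) and Ptger1 (1.14 ± 0.16) to Ptgs2 (0.817 ± 0.37). The ranges of Ptges and Ptger2, of Ptger2 and Ptger3, of Ptgir and Ptger4 and of Ptger1 and Ptgs2 overlapped, and those of the other neighbours did not. In Adm+/- LPS the order was Ptgs1 (42.6 ± 1.86), Hpgd (40.1 ± 6.95), Ptges (16.7 ± 3.06), Ptgis (11.5 ± 0.73), Ptger2 (5.83 ± 0.70), Ptger4 (5.62 ± 0.36), Ptgs2 (2.65 ± 0.45), Ptgir (2.59 ± 0.15), Ptger3 (2.12 ± 0.31) and Ptger1 (0.957 ± 0.20), with overlaps between Ptgs1 and Hpgd, between Ptger2 and Ptger4 and between Ptgs2 and Ptgir. Ptger4 thus had rank 8 in WT PBS and rank 6 in Adm+/- LPS, and Ptger3 had ranks 6 and 9. In WT LPS, Ptger4 (3.10 ± 0.42) also had rank 6 and Ptger3 (2.23 ± 0.64) rank 8.

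The supply of arachidonate was followed in 18 genes, of which 12 were tested. In WT lungs 3 were higher and 2 lower, where 10.5% and 7.09% of all tested genes were, and in Adm+/- lungs 2 were higher and 5 lower, where 12.8% and 12.2% were. The median log2 fold change of the 12 was −0.15 in WT and −0.58 in Adm+/- lungs, against 0.01 and −0.01 over all genes. Pla2g4a, the cytosolic phospholipase that releases arachidonate for the cyclooxygenases, rose in WT (0.68 ± 0.18, adjusted p = 0.0206) and in Adm+/- lungs (0.72 ± 0.18, adjusted p = 0.0103), from 11.2 ± 2.50 to 17.9 ± 1.93 CPM and from 10.9 ± 1.75 to 18.0 ± 0.62 CPM (mean ± SD, n = 3). The secreted phospholipase Pla2g12a rose in both (0.55 ± 0.13 and 0.57 ± 0.13). The WT calls of both were lost without WT LPS 9 (0.58, adjusted p = 0.0932, and 0.45, adjusted p = 0.0717). Mgll, the monoacylglycerol lipase, fell in WT (−0.84 ± 0.18, adjusted p = 0.00741) and Adm+/- lungs (−0.96 ± 0.18, adjusted p = 0.00212), the latter from 127 ± 18.2 to 65.6 ± 0.22 CPM. Pla2g4b fell in Adm+/- lungs (−1.43 ± 0.26, adjusted p = 0.00175), and its value in WT lungs was −0.67 ± 0.25 (adjusted p = 0.0765). The diacylglycerol lipase Dagla fell in both genotypes (−0.59 ± 0.18, adjusted p = 0.0411, and −0.78 ± 0.18, adjusted p = 0.00798), though its WT call was lost in 8 of 12 fits that left out 1 library (−0.65 to −0.45, adjusted p up to 0.159). Daglb and Faah, a hydrolase of fatty acid amides, fell in Adm+/- lungs (−0.70 ± 0.21, adjusted p = 0.0255, and −0.77 ± 0.25, adjusted p = 0.0393). These calls were lost in 4 and 7 of 12 such fits, at −0.70 to −0.61 for Daglb and −0.86 to −0.58 for Faah. Pla2g4e rose in WT lungs (2.38 ± 0.60, adjusted p = 0.0178) on 19 to 121 counts, highest in WT LPS 9, and without the 2 squamous libraries its value was 1.01 (adjusted p = 0.481). Pla2g6, the calcium-independent phospholipase, was at 19.9 to 23.5 CPM as group means with changes of −0.24 ± 0.14 and −0.16 ± 0.14 that did not pass.

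**Figure D5:**
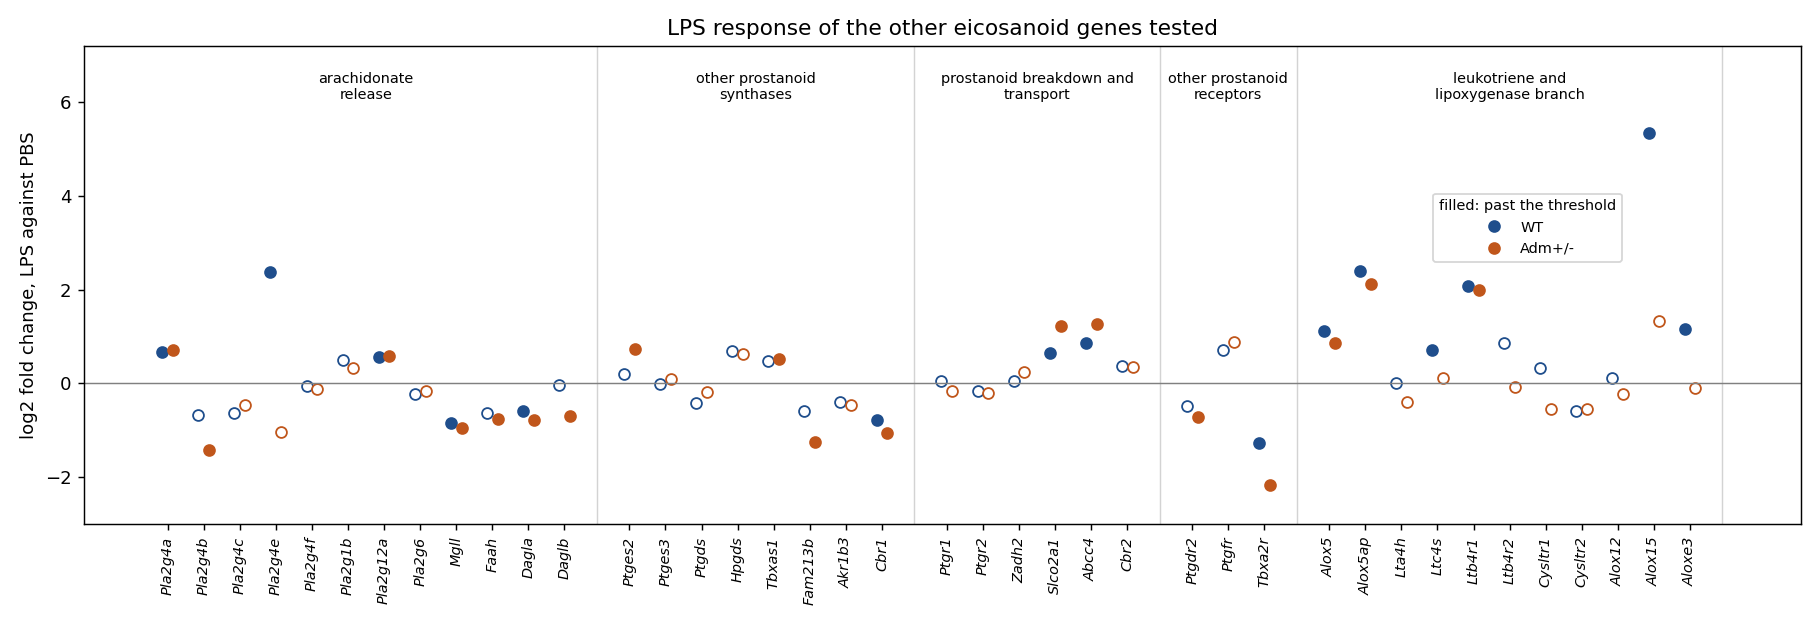
Fitted log2 fold changes, LPS against PBS, of the 40 tested genes of 5 lists of eicosanoid metabolism, in WT (blue) and Adm+/- (orange) lungs, filled where past the threshold. Slco2a1, Abcc4, Alox5, Alox5ap, Ltb4r1, Pla2g4a and Pla2g12a are above 0 and Mgll, Dagla, Cbr1 and Tbxa2r below 0 and past the threshold in both genotypes.

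Among 8 other prostanoid synthases and reductases, 1 was past the threshold in WT lungs, lower (17.6% of all tested genes were past it), and in Adm+/- lungs 2 were higher and 2 lower (25.0% of all tested genes were past it). Cbr1, a carbonyl reductase that can convert prostaglandin E2, fell from 41.99 ± 12.8 to 24.5 ± 5.45 CPM in WT (−0.78 ± 0.22, adjusted p = 0.0279) and from 40.1 ± 5.71 to 19.2 ± 2.20 CPM in Adm+/- lungs (−1.06 ± 0.22, adjusted p = 0.00412). Its WT call was lost without WT PBS 5 (−0.50, adjusted p = 0.0802) and without WT LPS 9 (−0.61, adjusted p = 0.117). Ptges2, a second synthase of prostaglandin E2, rose in Adm+/- lungs (0.73 ± 0.21, adjusted p = 0.0204), with a WT value of 0.19 ± 0.21. Tbxas1, the thromboxane synthase, rose in Adm+/- lungs (0.52 ± 0.15, adjusted p = 0.0208), with a nearly equal WT value (0.48 ± 0.15, adjusted p = 0.0406) just under the fold threshold. Fam213b, the prostamide and prostaglandin F synthase, fell in Adm+/- lungs (−1.25 ± 0.35, adjusted p = 0.0182). The calls of Ptges2, Tbxas1 and Fam213b were lost in 4, 3 and 2 of the 12 fits that left out 1 library, with adjusted p up to 0.0803, 0.0920 and 0.0708. In those fits the changes were 0.59 to 0.71, 0.40 to 0.51 and −1.07 to −1.01. Ptges3, the cytosolic synthase and cochaperone, was at 120 to 139 CPM as group means with changes of −0.02 ± 0.12 and 0.08 ± 0.12, and Akr1b3 was at 49.0 to 67.5 CPM with changes of −0.40 ± 0.13 and −0.46 ± 0.13, whose adjusted p (0.0484 and 0.0188) passed but whose size did not.

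Of 6 genes of breakdown and transport, 2 rose in both genotypes, and 13.1% of all tested genes passed in the same direction in both. Slco2a1, the carrier that takes prostaglandins up for oxidation, was at 346, 376 and 308 CPM in WT PBS 3, 4 and 5 and at 656, 513 and 444 CPM in WT LPS 9, 10 and 11. For Slco2a1 in Adm+/- lungs the levels were 307, 279 and 333 CPM in PBS 6, 7 and 8 and 799, 632 and 711 CPM in LPS 1, 2 and 12. All LPS libraries were above all PBS libraries. The changes were 0.65 ± 0.15 (adjusted p = 0.0111) and 1.22 ± 0.15 (adjusted p = 0.000202), with a difference of 0.57 ± 0.21 (adjusted p = 0.494), and the WT call was lost without WT LPS 9 (0.47, adjusted p = 0.0566). Abcc4, a pump that exports prostaglandin E2, changed by 0.87 ± 0.19 (adjusted p = 0.00795) and 1.27 ± 0.19 (adjusted p = 0.000535). The reductases that act after Hpgd, Ptgr1, Ptgr2 and Zadh2, were at 18.7 to 20.9, 16.4 to 19.8 and 75.5 to 88.8 CPM as group means and did not pass, nor did Cbr2, the most abundant of these 6, at 720 to 1013 CPM.

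Of the 4 other prostanoid receptors, 3 were tested and Ptgdr, with 0 to 7 counts per library, was not. Tbxa2r, the thromboxane receptor, had the lowest fitted change with LPS of the tested prostanoid synthases, receptors, breakdown and transport genes in each genotype. It was at 14.2, 11.9 and 16.9 CPM in WT PBS 3, 4 and 5 and at 2.96, 5.78 and 9 CPM in WT LPS 9, 10 and 11. For Tbxa2r in Adm+/- lungs the levels were 17.9, 13.6 and 13.04 CPM in PBS 6, 7 and 8 and 3.85, 2.30 and 3.63 CPM in LPS 1, 2 and 12. The LPS libraries lay below the PBS libraries in both genotypes. The changes were −1.28 ± 0.34 in WT (adjusted p = 0.0206) and −2.18 ± 0.35 in Adm+/- lungs (adjusted p = 0.000891), with a difference of −0.90 ± 0.48 (adjusted p = 0.732). The WT call was lost without WT PBS 5, WT LPS 9 or WT LPS 10 (−1.16, −0.96 and −1.27, adjusted p = 0.0501 to 0.0511). Ptgdr2, a receptor of prostaglandin D2, fell in Adm+/- lungs (−0.72 ± 0.21, adjusted p = 0.0236), a call lost in 4 of 12 fits without 1 library (−0.74 to −0.58, adjusted p up to 0.0892). Ptgfr, the receptor of prostaglandin F2 alpha, was at 1.75 to 3.44 CPM as group means with changes of 0.70 ± 0.35 and 0.88 ± 0.35 that did not pass.

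In the neighbouring leukotriene and lipoxygenase branch, which uses the same arachidonate, 6 of 11 tested genes were higher in WT lungs, where 10.5% of all tested genes were, and 3 in Adm+/- lungs, where 12.8% were. Of the 6, Ltc4s and Aloxe3 were at low levels and Alox15 was high in the squamous libraries, as given below. Alox5, which starts leukotriene synthesis, rose by 1.11 ± 0.15 (adjusted p = 0.000697) and 0.85 ± 0.15 (adjusted p = 0.00146). Its activating protein Alox5ap rose by 2.40 ± 0.28 and 2.11 ± 0.27, from 7.93 ± 1.68 to 42.2 ± 13.4 CPM and from 7.57 ± 1.55 to 32.9 ± 7.05 CPM. Ltb4r1, the receptor of leukotriene B4 on neutrophils, rose by 2.08 ± 0.21 and 1.99 ± 0.21. The summed neutrophil markers were also higher with LPS in both genotypes, as given above, and their part in these changes was not tested. Alox15 rose in WT lungs (5.34 ± 1.004, adjusted p = 0.00424), at 56.2, 1.66 and 43.2 CPM in WT LPS 9, 10 and 11, high only in the 2 libraries with squamous transcripts among the 12, and its value without them was 0.98 (adjusted p = 0.480). The call of Alox15 was also lost by limma-voom (4.54, adjusted p = 0.110). Aloxe3 and Ltc4s, at or below 1.35 and 3.39 CPM, also passed in WT lungs (1.17 ± 0.33 and 0.70 ± 0.23). These calls were lost in 3 and 11 of 12 fits without 1 library, at 0.85 to 1.10 for Aloxe3 and 0.56 to 0.74 for Ltc4s. Lta4h, which makes leukotriene B4, was at 56.8 to 75.0 CPM as group means with changes of −0.00 ± 0.13 and −0.40 ± 0.13, and Alox12 at 9.80 to 13.3 CPM with changes of 0.10 ± 0.21 and −0.23 ± 0.21, and neither passed. Without WT LPS 9 and 11, which leaves WT LPS 10 alone in its group with its spread taken from the other groups, 12 of the WT calls in the 5 lists were lost, among them Slco2a1 (0.58, adjusted p = 0.0965), Abcc4 (0.60, adjusted p = 0.113), Mgll (−0.84, adjusted p = 0.112), Cbr1 (−0.67, adjusted p = 0.289) and Tbxa2r (−1.31, adjusted p = 0.0628), some with nearly the same fold as in the fit of all libraries, while those of Alox5 (0.79), Alox5ap (1.75) and Ltb4r1 (1.597) were kept. In the fit of the 6 WT libraries alone, 11 WT calls of the 5 lists were lost with little change in fold, namely Abcc4 (adjusted p = 0.0575), Mgll (0.0545), Slco2a1 (0.0627), Cbr1 (0.108), Tbxa2r (0.0831), Pla2g4a (0.0934), Pla2g12a (0.0879), Pla2g4e (0.0827), Dagla (0.118), Aloxe3 (0.111) and Ltc4s (0.177). The test against a log2 fold change of 0.5 ended the same 11 WT calls (adjusted p = 0.0501 to 0.657) and 9 of the Adm+/- calls, those of Ptges2, Tbxas1, Fam213b, Ptgdr2, Pla2g4a, Pla2g12a, Faah, Dagla and Daglb (adjusted p = 0.0827 to 0.668).

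Finally, the genes whose profile over the 12 libraries was closest to that of Ptgs2, Ptges and Hpgd were named, by the root mean square difference of centred log2 CPM among 14591 candidates with a mean of at least 1 CPM. For Ptgs2, whose own SD over the libraries was 0.83, they were Rnf125 (0.27), Ripk2, a kinase of bacterial sensing (0.29), and S1pr1, a sphingosine phosphate receptor (0.32). For Ptges (SD 0.78) they were Tnfrsf13c (0.18), Lacc1 (0.21) and Nos2, the inducible nitric oxide synthase (0.21). For Hpgd (SD 0.60), Fign (0.22) and Pgap1 (0.23) were among them. Because these genes were chosen over the same 12 libraries, their responses to LPS follow from the choice and are given as a description, with no test. The fitted log2 fold change with LPS in WT lungs was 0.62, 0.67 and 0.80 for Rnf125, Ripk2 and S1pr1, 1.31, 1.24 and 1.27 for Tnfrsf13c, Lacc1 and Nos2, and −0.10 and 0.07 for Fign and Pgap1. In Adm+/- lungs it was 1.29, 1.26 and 1.53 for the genes closest to Ptgs2, 1.59, 1.55 and 2.03 for those closest to Ptges, and −0.95 and −0.87 for Fign and Pgap1.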

How the data were processed

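Whole lungs of 12 mice were sequenced in bulk, 3 in each of 4 groups taken from the sample labels, after depletion of ribosomal RNA with a directional kit. Reads were trimmed with Trim Galore, aligned with HISAT2 to mm10 and counted on Gencode genes with featureCounts. The counts deposited by the authors are whole-number raw counts for 52550 genes, without normalization or filter, and all 12 columns were used (0 left out). The strand option and the Gencode release are not given in the sources used here, so reads of overlapping genes may have been shared. Reads carry no molecular identifiers.

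Of 21950 protein-coding genes, filterByExpr kept 15885, which were scaled by TMM and tested with edgeR 4.0.16 (quasi-likelihood F-test, R 4.3.3) in 1 fit of 4 group coefficients and no covariate, with 6 contrasts. The study used limma for this design, which served here as an alternative. Standard errors are the log2 fold change divided by the root of F, and 95% intervals use the fit's total degrees of freedom. Log2 CPM used a prior count of 2. Alternatives were RLE size factors, DESeq2 1.42.0, limma-voom (limma 3.58.1), a test against a log2 fold change of 0.5, no filter, all annotated genes, fits of the compared libraries alone, each library left out, and WT PBS 5 and Adm+/- PBS 6 left out. A further one, without WT LPS 9 and 11, was chosen after seeing the data. The code was tested on simulated data. Promoters came from RefSeq on GRCm38.p6 and exon lengths from the annotation of the same build.

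The 10 genes, the lists, the motifs and the tests were chosen with earlier results of these data known. All 10 genes are given with values. From other lists, genes past the threshold after LPS (at most 6 a list, by smallest p) and genes of at least 10 CPM were named, and 3 genes of closest profile for Ptgs2, Ptges and Hpgd, of which 1 is not reported here.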

Additional observations from a re-analysis of the deposited data

How the results depend on the processing

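No paired analysis was run, since the sample labels give no litter or other pairing of the mice. The replicate numbers are serial numbers of the libraries. Of the 10 genes, the number past the threshold in WT lungs was 2, and it was 1 in the test against a log2 fold change of 0.5, in the fit of the compared libraries alone and without WT LPS 9 and 11 (an alternative chosen after seeing the data, with the spread of the lone WT LPS library taken from the other groups), and 1 to 3 with 1 library left out. In Adm+/- lungs it was 6, against 3 in the test against 0.5 and 5 to 6 with 1 library left out. For the averaged response it was 5, against 3 in the test against 0.5 and 4 by limma-voom and without WT LPS 9 and 11. Without WT PBS 5 and Adm+/- PBS 6 the WT count was also 2, with Ptgis in place of Ptger3. For the difference of responses it was 0, against 1 by DESeq2, where the count over all genes was not taken. Between the genotypes in LPS it was 0, against 3 by DESeq2, 3 without WT PBS 5 and Adm+/- PBS 6, 3 in the fit of the compared libraries alone, and 0 to 3 with 1 library left out. Over all genes, 2791 passed in WT lungs, against 1001 in the test against 0.5, 759 without WT LPS 9 and 11, 1152 with the compared libraries alone and 1443 (without WT LPS 9) to 3074 with 1 library left out. In Adm+/- lungs 3968 passed, against 1695 in the test against 0.5. Between the genotypes in LPS 325 passed, against 803 by DESeq2, 133 in the test against 0.5, 548 without WT PBS 5 and Adm+/- PBS 6, 107 without WT LPS 9 and 11, and 81 (without Adm+/- LPS 1) to 573 (without WT PBS 5) with 1 library left out. The causes were not tested. The fitted changes that turned sign were all of genes that did not pass in that comparison. With 1 library left out, the difference of responses ran from −0.033 (without WT LPS 11) to 0.59 for Ptges, from −0.15 (without WT PBS 5) to 0.13 for Ptgis and from −0.30 to 0.10 (without WT LPS 11) for Ptger3, the WT change from −0.34 to 0.32 (without WT PBS 3) for Hpgd and from −0.099 (without WT LPS 11) to 0.22 for Ptger1, the averaged change from −0.16 to 0.0014 (without WT LPS 10) for Ptger1, the Adm+/- change from −0.0018 (without Adm+/- LPS 2) to 0.080 for Ptgir, and the LPS genotype value from −0.28 to 0.12 (without WT LPS 11) for Ptger3. Hpgd in WT lungs was 0.085 by limma-voom, and the difference for Ptgis was −0.060 without WT PBS 5 and Adm+/- PBS 6. Without WT LPS 9 and 11, the WT change of Ptger1 was −0.34, the differences were −0.079 for Ptgis, 0.12 for Ptger1 and −0.026 for Ptger2, and the LPS genotype values were 0.092 for Ptger1 and −0.079 for Ptger2. Ptgs2 had 29 to 181 counts per library outside Adm+/- LPS, and the part of this depth in its spread was not tested.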
